A study of Homo sapiens with 12 samples.

Results

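The enzymes that write and maintain 2 kinds of heritable gene silencing, DNA methylation and Polycomb-type histone methylation, were followed through radiation-induced senescence and its treatment with 2 kinase inhibitors. The 10 genes, *DNMT1*, *DNMT3A*, *DNMT3B*, *UHRF1*, *HELLS*, *EZH1*, *EZH2*, *SUZ12*, *EED* and *SUV39H1*, were chosen by symbol, and all 10 were found among the 16383 genes of the table. All 10 also passed the filter on low values (a mean of at least 10 normalized counts over the 12 libraries), as did 11242 genes in all. The largest Entrez gene ID in the table was 140467, for a reason that is not known. Genes with larger IDs are therefore missing from the gene lists and from the shares over all genes.

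The material was IMR90, a line of human lung fibroblasts with a limited lifespan in culture, labelled wild type in every group, and RNA was read after poly(A) capture. The proliferating group (3 libraries) was labelled as untreated. The other 3 groups (3 libraries each) received 20 Gy of ionizing radiation in 10 min and were harvested 11 days later, having been given DMSO (the solvent), 2 µM palbociclib, an inhibitor of the cell cycle kinases CDK4 and CDK6, or 2 µM ruxolitinib, an inhibitor of the cytokine-signalling kinases JAK1 and JAK2. Each inhibitor was first given on day 4 and again on day 6, day 8 and day 10. All libraries come from this single line, and nothing in the labels says that replicates were separate cultures, so p-values measure the spread between these samples, which may be technical. The proliferating cells differ from the DMSO cells in radiation, solvent and time in culture, and these cannot be told apart.

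DNA methylation is copied at each cell division by DNMT1, which UHRF1 recruits to hemimethylated DNA behind the replication fork, while DNMT3A and DNMT3B place methyl groups on unmethylated sites and HELLS remodels nucleosomes so that methylation can reach packed chromatin. Polycomb repressive complex 2 (PRC2) methylates histone H3 at lysine 27 through a catalytic subunit, EZH2 or its paralog EZH1, held by the core subunits SUZ12 and EED. SUV39H1 methylates lysine 9 of the same histone in constitutive heterochromatin. Several of these genes are known as targets of E2F, the transcription factors that CDK4 and CDK6 release from the retinoblastoma protein as cells enter the cycle.

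The start-site windows of the 10 genes (250 bases before to 50 after each RefSeq start, GRCh38.p14) were searched on both strands for 4 words of the E2F type, TTTCCCGC, TTTGGCGC, TTTCGCGC and TTTGCCGC. At least 1 word was present in 6 of the 10 genes, against 4.0% of the 27305 genes in the same RefSeq table. Genes differ in their number of starts, and this table is not limited to the 11242 genes tested for expression. Some windows lay inside the gene model, so words at other annotated starts would be missed. The only window of *DNMT3B* began at chr20:32779602, whereas its gene model starts at chr20:32762385. Counted by window, 7 of 19 held a word, against 3.3% of 35116. The stretches that hold a word follow. They are shown because these 6 genes include the 3 largest decreases and the only increase of the 10 in DMSO against proliferating cells. The 6 also include *SUZ12*, with a smaller change (-0.88). *SUV39H1* (-1.86) and *DNMT3B* (-1.75), where no word was found, changed about as much as *DNMT1* (-1.79). A relation between word and size of change was not tested. Capitals mark the word, and each stretch of 30 bases is written 5′ to 3′ on the strand of its gene. They lie at chr10:94545769-94545798 (+) and chr10:94545701-94545730 (+) for *HELLS*, chr19:4909476-4909505 (+) and chr19:4909973-4910002 (+) for *UHRF1*, chr19:10194937-10194966 (-) for *DNMT1*, chr7:148884272-148884301 (-) for *EZH2*, chr17:31936807-31936836 (+) for *SUZ12* and chr17:42745137-42745166 (-) for *EZH1*.
HELLS start site: gatgacaggatTTTCCCGCgaaggagaagc
HELLS upstream: aaccgcaagctGCGCCAAAtctcgcgcagc
UHRF1 start site: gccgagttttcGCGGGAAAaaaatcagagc
UHRF1 other start: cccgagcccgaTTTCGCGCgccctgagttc
DNMT1: catcggtttccGCGCGAAAagccggggcgc
EZH2: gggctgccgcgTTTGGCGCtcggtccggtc
SUZ12: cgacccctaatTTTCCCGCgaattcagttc
EZH1: gcggggttttgGCGGCAAAtgacagtagtg

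In *HELLS*, *UHRF1*, *DNMT1* and *EZH2* a word lay within 14 bases of a start, whereas in *EZH1* it began 115 bases and in *SUZ12* 189 bases before it. The CHR word TTTGAA, searched in the same way, was in the windows of 2 of the 10 genes (*DNMT3A* and *SUZ12*) and of 18.2% of all genes. Counted by window it was in 2 of 19, against 15.2%. A match is a match of letters, and binding was not measured.

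Levels are given as normalized counts, the reads of a gene divided by a size factor for its library. Differences are log2 fold changes on the log2(normalized count + 1) scale, fitted with limma over all 12 libraries and called at a Benjamini-Hochberg adjusted p under 0.05. Libraries held 14106799 to 21762412 reads. All 12 of 12 fibroblast markers were present in the groups, *COL1A1* being the highest. Their sum ranged over the libraries from 903226 to 930059 normalized counts in proliferating cells and from 459395 to 465782 in DMSO cells. It was 715169 to 738537 with palbociclib and 569114 to 575102 with ruxolitinib. Of the markers of other cell types, *KRT5*, *KRT14*, *SFTPC* (epithelial), *CDH5*, *CLDN5*, *KDR* (endothelial), *PTPRC*, *CD3E* (blood) and *MYH11* (smooth muscle) stayed below 10 normalized counts in every group mean, but other genes of these lists did not. The highest of each list was *KRT19* of 7 epithelial genes (97.2 to 402 in group means), *TEK* of 6 endothelial genes (1832 to 3957), *CD68* of 7 blood cell genes (549 to 1232) and *ACTG2* of 4 smooth muscle genes (6136 to 15646). Summed over each list, levels ranged over the libraries of proliferating, DMSO, palbociclib and ruxolitinib cells as 153 to 217, 317 to 359, 409 to 529.8 and 350.3 to 399.8 (epithelial), and as 1681 to 1949, 2394 to 2558, 3503 to 4381 and 2249.9 to 2256 (endothelial). The blood cell list gave 544 to 571, 1234 to 1319, 702 to 809 and 1089.5 to 1155, and the smooth muscle list 20077 to 20237, 8825 to 9948, 16299 to 19349 and 7920.2 to 8104. These sums differ between groups, and their part in the results was not tested. The proliferating library A126 and the palbociclib library A120 differed most from the other libraries of their groups. The scaling of the table also bears on the comparisons: setting all libraries to the same total moved the median gene by 0.23 between DMSO and proliferating cells and by -0.23 between palbociclib and DMSO.

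Radiation-induced senescence was accompanied by lower levels of 9 of the 10 genes and a higher level of *EZH1*. In DMSO cells against proliferating cells all 10 were called, 9 lower and 1 higher, where 39.3% of all genes tested were called lower and 33.0% higher (72.4% either way). In all 10 genes the 3 libraries of the groups did not overlap, which held for 75.1% of genes. The median over the 10 genes was -1.77, beside -0.05 over all genes tested. In bulk RNA, fewer cells expressing a gene and less of its RNA per cell cannot be told apart.

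Among the maintenance genes, *UHRF1* changed most. It was measured at 3059, 3159.6 and 3177 normalized counts in the proliferating libraries and at 351, 348 and 358.5 in the DMSO libraries. Every DMSO library lay far below every proliferating library, and the spread within each group was small. *UHRF1* fell by 3.15 ± 0.07 (log2, SE, n = 3 per group), a change of 8.86-fold (limma adjusted p = 1.79e-14).

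*DNMT1*, the maintenance methyltransferase itself, stood at 5729.7, 5547 and 6094 in proliferating cells and at 1686, 1688 and 1657 in DMSO cells. The groups were well separated, and *DNMT1* fell by 1.79 ± 0.05 (adjusted p = 8.81e-14), less than its partner *UHRF1*. *HELLS*, the chromatin remodeller, went from 754, 746 and 683 to 132, 150.3 and 153, a fall of 2.32 ± 0.10 (adjusted p = 6.88e-12).

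The de novo methyltransferases differed in size of change. *DNMT3B* was the lowest of the genes in normalized counts, at 242, 231 and 208.5 in proliferating cells and 57.4, 66.3 and 78.6 in DMSO cells, and fell by 1.75 ± 0.17 (adjusted p = 1.68e-07). *DNMT3A* was at 420.2, 456 and 470.4 and then at 248, 275 and 227. Its groups did not overlap, but its fall of 0.85 ± 0.10 (adjusted p = 8.92e-07) was smaller than that of *DNMT3B*.

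The catalytic subunits of PRC2 moved in opposite directions. *EZH2* stood at 1243, 1201 and 1183 in proliferating cells and at 185, 179 and 213 in DMSO cells, a fall of 2.65 ± 0.10 (adjusted p = 2.43e-12). *EZH1*, the paralog found in many non-dividing tissues, stood at 289.5, 313 and 296 and then at 694, 717 and 652. All DMSO libraries were above all proliferating libraries for *EZH1*, which rose by 1.20 ± 0.08 (adjusted p = 1.47e-09), a direction kept under every scaling tried.

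The core subunits fell less than *EZH2*. *SUZ12*, which holds the complex together, was at 1723.5, 1442 and 1832 in proliferating cells, the 1442 being library A126, and at 919.6, 901 and 886 in DMSO cells, a fall of 0.88 ± 0.08 (adjusted p = 5.51e-08). *EED*, which reads the finished mark, was at 447, 483.5 and 404 and then at 279, 249 and 251, a fall of 0.77 ± 0.09 (adjusted p = 1.70e-06). *SUV39H1*, the H3K9 methyltransferase, was at 533, 496 and 479.9 and then at 124, 155 and 136. It fell by 1.86 ± 0.12 (adjusted p = 8.94e-10), with no overlap between groups.

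**Figure D1:**
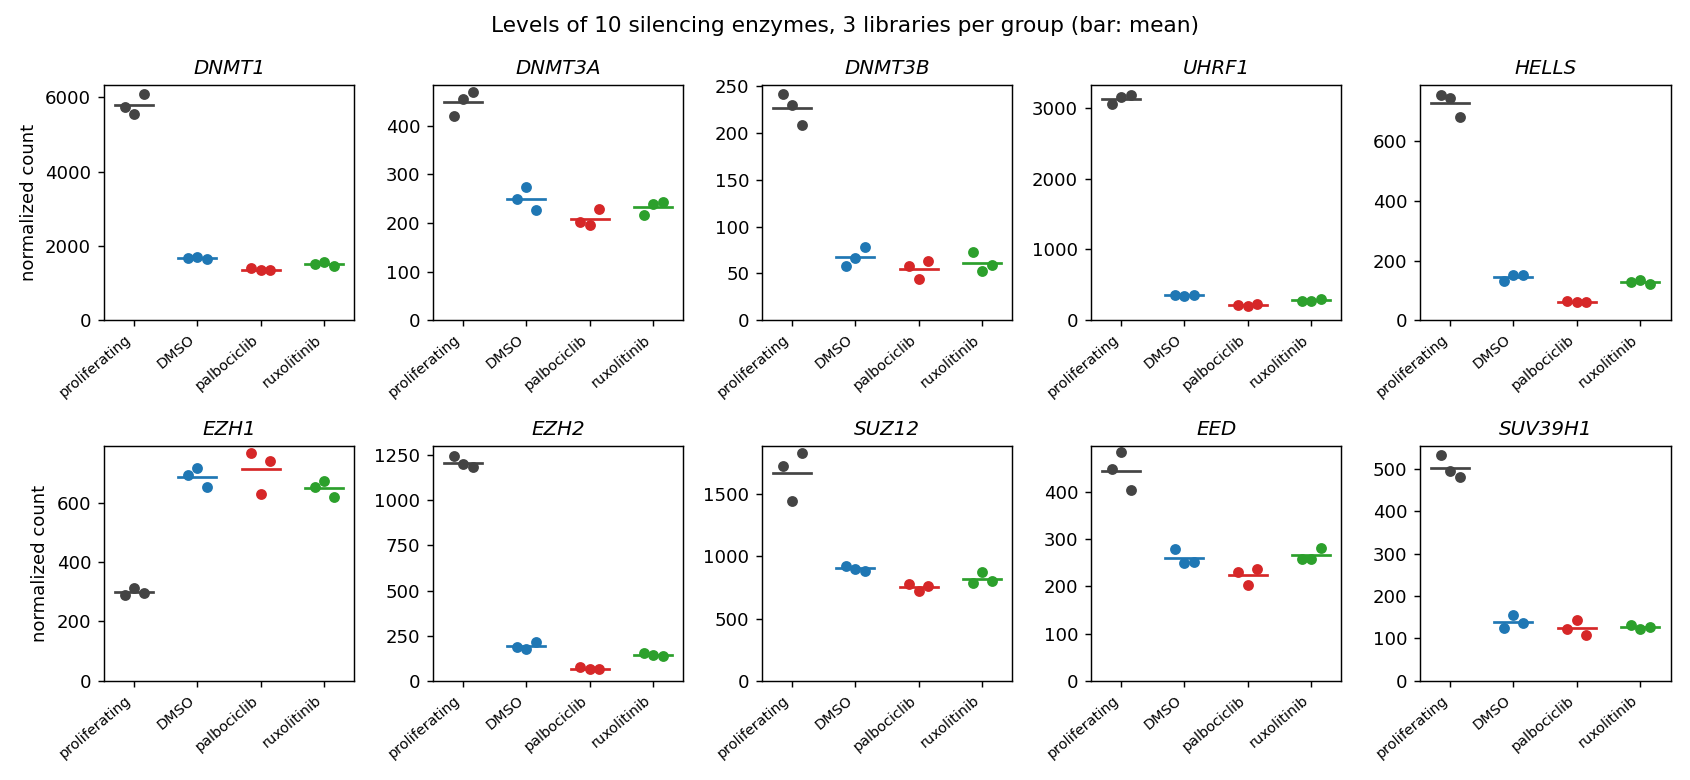
Normalized counts (y axis, linear from 0, a range of its own per gene) of the 10 genes in proliferating, DMSO, palbociclib and ruxolitinib cells (x axis). Each point is 1 of 3 libraries and the bar is the group mean. In 9 panels the proliferating libraries are the highest, and in the *EZH1* panel they are the lowest.

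Palbociclib given to irradiated cells was accompanied by a further decrease of 6 of the 10 genes, largest for *EZH2* and *HELLS*. Called lower against DMSO were *DNMT1*, *DNMT3A*, *UHRF1*, *HELLS*, *EZH2* and *SUZ12*, and none was called higher, where 22.3% of all genes tested were called lower and 26.0% higher (48.3% either way). The libraries of the groups did not overlap in 6 genes, which held for 54.8% of all genes. The DMSO libraries are shared with the comparisons above and below.

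*EZH2* was measured at 77.5, 64.6 and 63.1 normalized counts with palbociclib, beside the 179 to 213 of DMSO cells. It fell by 1.48 ± 0.10, a change of 2.79-fold (adjusted p = 1.43e-08), and its mean then stood at 5.66% of the proliferating mean, against 15.9% in DMSO cells. *HELLS* was at 65.3, 62.4 and 59.5, all below the lowest DMSO library, a fall of 1.20 ± 0.10 or 2.3-fold (adjusted p = 9.49e-08).

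*UHRF1* was at 219, 193 and 234.5 with palbociclib, again without overlap, and fell by 0.71 ± 0.07 (adjusted p = 1.62e-06). *DNMT1* was at 1389.9, 1351 and 1345 and fell by 0.30 ± 0.05 (adjusted p = 1.69e-04). *SUZ12* was at 781, 725 and 762 and fell by 0.26 ± 0.08 (adjusted p = 0.0135). In these 3 genes each palbociclib library was below each DMSO library, though the change in *DNMT1* and *SUZ12* was small. *DNMT3A* was at 202.5, 196 and 228, the last of which is above the lowest DMSO library, and its fall of 0.26 ± 0.10 was close to the threshold (adjusted p = 0.0367). The *DNMT3A* call was lost when any of the libraries A116, A117, A119 or A120 was left out (adjusted p of 0.0776 to 0.157), and without A120 and A126 together, an alternative chosen after seeing the data (adjusted p = 0.0947). It was also lost with quantile normalization (-0.12, adjusted p = 0.316), with no filter and when only the 2 groups were fitted, and was kept in 15 of 24 alternatives.

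The other 4 genes were not called as deposited, and the count depended on the scaling. With the same total per library 9 of the 10 were called lower, *EED* (-0.44, adjusted p = 0.0014), *DNMT3B* (-0.52, adjusted p = 0.0177) and *SUV39H1* (-0.38, adjusted p = 0.0121) included, where 5170 of the 11242 genes were called lower. With the same upper quartile 7 were called lower, *EED* included, and with quantile normalization 5. *EZH1* was at 768, 630.5 and 739.9 with palbociclib, and its difference of 0.05 had a 95% interval of -0.12 to 0.21. *DNMT3B* (57.5, 43.8 and 63.1) differed by -0.30, with an interval of -0.66 to 0.06. *EED* (230.2, 204 and 236) lay below DMSO in all libraries, and its difference of -0.22 (interval -0.41 to -0.02) had an adjusted p of 0.0642. *SUV39H1* was at 122, 144.5 and 107.5, a difference of -0.16 with an interval of -0.40 to 0.09. The intervals of *DNMT3B* and *SUV39H1* span both little change and a moderate decrease.

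Ruxolitinib was accompanied by smaller differences, and only *UHRF1* and *EZH2* were called against DMSO, both lower. Over all genes tested, 3.42% were called lower and 1.10% higher (4.52% either way). *UHRF1* was at 275, 268 and 292 and fell by 0.34 ± 0.07 (adjusted p = 0.0147). *EZH2* was at 153, 145 and 138 and fell by 0.40 ± 0.10 (adjusted p = 0.0318). In both genes the ruxolitinib libraries lay below all DMSO libraries. Neither call held when some libraries were left out: without the DMSO library A116 or A118, or the ruxolitinib library A122 or A123, the count of called genes was 0, and without A124 or A125 it was 1.

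*DNMT1* (1508, 1567 and 1456) and *SUZ12* (788, 874 and 802) also lay below DMSO in every library without being called. Groups did not overlap in 4 of the 10 genes, where 31.9% of all genes did not. The difference of *DNMT1* was -0.15 (95% interval -0.26 to -0.04, adjusted p = 0.118, or 0.0228 without A120 and A126), and that of *SUZ12* was -0.14 (interval -0.30 to 0.03). *HELLS* was at 128, 133 and 123 with ruxolitinib and overlapped DMSO, with a difference of -0.17 and an interval of -0.38 to 0.03. *EZH1* (653.5, 672 and 621), *EED* (257, 258 and 281.5), *DNMT3A* (216, 239.5 and 244), *DNMT3B* (72.5, 52.2 and 58.7) and *SUV39H1* (131, 123 and 126.3) overlapped DMSO too, with differences between -0.14 and 0.03.

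The inhibitors were compared directly at their common dose of 2 µM. Lower with palbociclib than with ruxolitinib were *EZH2* by -1.08 ± 0.10 (adjusted p = 6.56e-07), *HELLS* by -1.03 ± 0.10 (adjusted p = 7.64e-07), *UHRF1* by -0.37 ± 0.07 (adjusted p = 9.35e-04), *EED* by -0.25 ± 0.09 (adjusted p = 0.0411) and *DNMT1* by -0.15 ± 0.05 (adjusted p = 0.0270). These are 5 of the 10 genes, where 17.6% of all genes tested were called lower and 22.8% higher (40.4% either way). The groups did not overlap in these 5 and in *SUZ12*, 6 of 10, where 51.8% of all genes did not overlap. *SUZ12* differed by -0.12 (interval -0.28 to 0.05) and *EZH1* by 0.13 (interval -0.03 to 0.30), and neither was called. The *EED* call was lost without A120 (-0.19, adjusted p = 0.147), A122, A123, A124 or A125, and the *DNMT1* call without A121, A122 or A123 (adjusted p of 0.0697 to 0.117). With the same total per library 7 genes were called lower, and with quantile normalization 4. Without A120, *EZH1* was called higher with palbociclib (0.22, adjusted p = 0.0262).

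**Figure D2:**
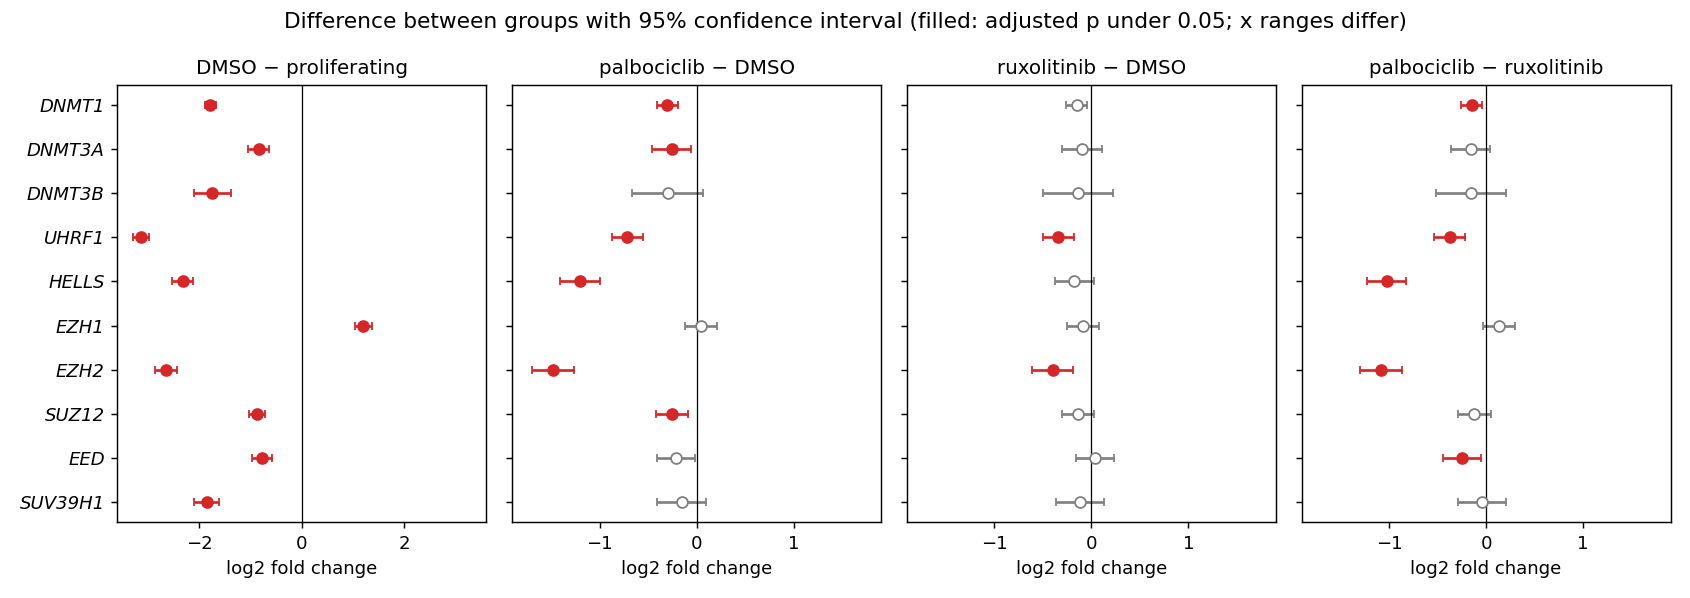
Log2 fold change (x axis, the first panel with a wider range) of each of the 10 genes (y axis) in 4 comparisons. Points are limma estimates and lines are 95% confidence intervals, and filled red points have an adjusted p under 0.05. *EZH2* and *HELLS* lie farthest left in both panels of palbociclib, at -1.48 and -1.20 against DMSO.

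Against proliferating cells, 9 genes were lower and *EZH1* higher with either inhibitor, and in neither case did the groups of any of the 10 genes overlap. Over all genes with palbociclib, 38.6% were called lower and 35.2% higher (73.8% either way), and 70.9% did not overlap. With ruxolitinib the shares were 39.5%, 32.6%, 72.2% and 76.2%. With palbociclib *EZH2* was lower by -4.13, *UHRF1* by -3.86 and *HELLS* by -3.52. Palbociclib cells had the lowest mean of the 4 groups in 9 of the 10 genes, and the share of all genes with this order was not counted. Some of these differences were small. Against ruxolitinib *DNMT3A* (-0.16), *DNMT3B* (-0.16) and *SUV39H1* (-0.04) were not called (limma adjusted p = 0.199, 0.485 and 0.825). With quantile normalization the last 2 were higher with palbociclib than with ruxolitinib (0.10 and 0.15).

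Ratios of genes within a library do not depend on how libraries are scaled. Levels per kilobase divide the count of a gene by the merged length of all its annotated exons. The transcripts present may be shorter. The value of a ratio therefore depends on these lengths, whereas its change between groups does not. The ratio of *EZH2* to *EZH1* per kilobase was 2.62 ± 0.15 (SD, n = 3) in proliferating cells, 0.182 ± 0.026 in DMSO cells, 0.0624 ± 0.0062 with palbociclib and 0.145 ± 0.0059 with ruxolitinib. *EZH2* was thus higher than *EZH1* per kilobase in proliferating cells and lower in all irradiated groups, as it also was in normalized counts. No 2 groups overlapped in this ratio. Exact permutation tests of 3 libraries against 3 (two-sided) cannot give a p below 0.1, which was reached for each pair of groups here, and over the 30 ratio tests made the adjusted value was 0.143.

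The ratio of *EZH2* to the core subunit *SUZ12* also fell without overlap in value, from 0.446 ± 0.057 to 0.130 ± 0.014, 0.0549 ± 0.0050 and 0.108 ± 0.0090 in the same order of groups. *UHRF1* to *DNMT1* was 1.62 ± 0.075, 0.629 ± 0.016, 0.473 ± 0.047 and 0.553 ± 0.044, and only the 2 inhibitor groups overlapped (exact p = 0.2). *DNMT3A* to *DNMT3B* was 0.993 ± 0.13 in proliferating cells and 1.89 ± 0.39, 1.93 ± 0.26 and 1.95 ± 0.42 in the irradiated groups, which overlapped each other. *SUV39H1* to its paralog *SUV39H2* was 1.22 ± 0.17, 0.994 ± 0.11, 0.921 ± 0.19 and 0.915 ± 0.023. DMSO and palbociclib cells overlapped proliferating cells in this last ratio.

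**Figure D3:**
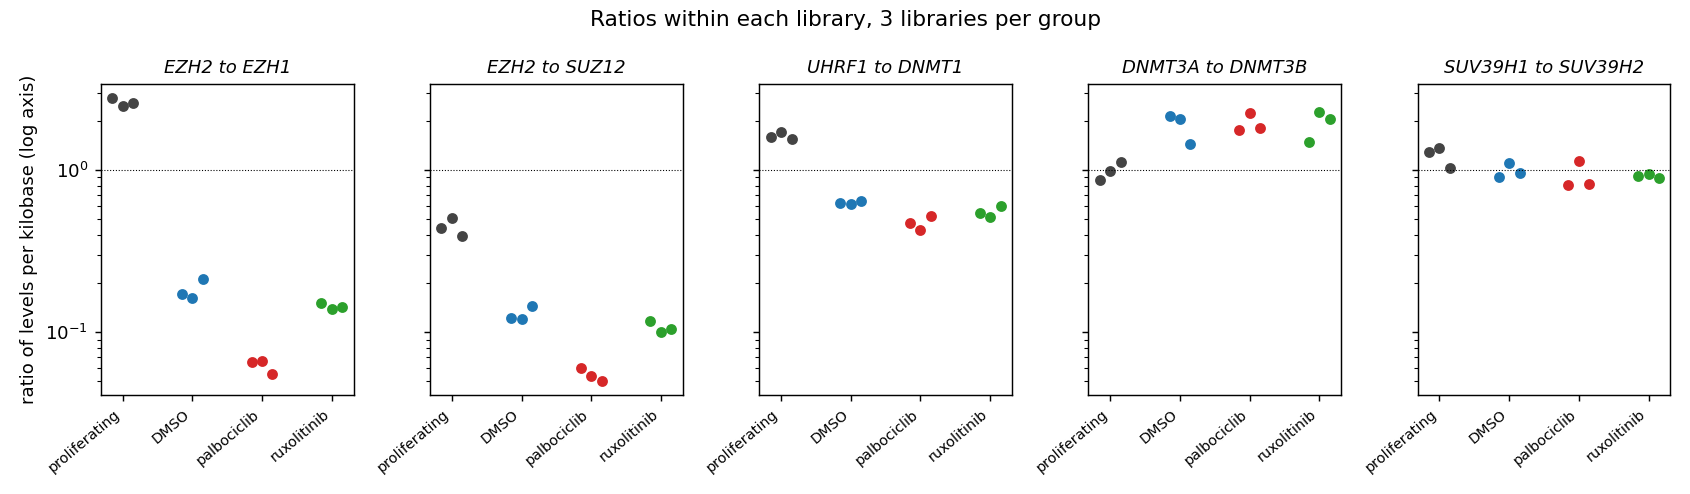
Ratio of levels per kilobase within each library (y axis, log scale) for 5 gene pairs in the 4 groups (x axis). Each point is 1 library. The dotted line marks equal levels per kilobase of merged exon, and its place depends on the lengths used. *EZH2* to *EZH1* lies above the line in proliferating cells (mean 2.62) and below it in all irradiated groups.

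Per kilobase, *UHRF1* had the highest level of the 10 genes in proliferating cells (609 normalized counts per kilobase) and *SUZ12* the highest in each irradiated group (138, 115 and 125 in DMSO, palbociclib and ruxolitinib cells). *EZH1* ranked 8 of 10 in proliferating cells, at 42.9, and 2 of 10 with palbociclib, at 102. *HELLS* was the lowest with palbociclib, at 4.39. The merged exon lengths used ran from 3233 bases for *SUV39H1* to 15379 for *DNMT1*. The lengths of the transcripts present were not measured, and the order of these levels depends on them. Some of these levels may include reads of other genes: 21.1% of the 50-base words of *UHRF1* and 7.65% of those of *SUZ12* (mostly the pseudogene *SUZ12P1*) occur elsewhere in the annotated transcripts. An opposite-strand lncRNA overlaps 21.2% of the exon bases of *SUV39H1*, and the strand setting of the counting is not given in the sources used here.

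Of 23 other tested genes of DNA methylation, its reading and its removal, 16 fell and 3 rose in DMSO against proliferating cells, with a median of -0.58, where 39.3% of all genes were called lower and 33.0% higher, with a median of -0.05. With the same total per library 12 fell and 5 rose (median -0.345). Of the 11242 genes, 2970 were then called lower and 5273 higher. *CDCA7*, which works with HELLS, fell by 3.87 (adjusted p = 1.24e-11), *TET1*, an enzyme that oxidizes methylcytosine, by 2.32 (adjusted p = 3.01e-08) and *UHRF2*, the paralog of *UHRF1*, by 0.45 (adjusted p = 1.74e-05). *GADD45A*, a damage-response gene also linked to demethylation, rose by 1.43 (adjusted p = 2.55e-10). With palbociclib 8 of the 23 fell and 5 rose (median -0.08), where 22.3% of all genes fell and 26.0% rose (median 0.02). *PCNA*, the replication clamp, fell by 1.14 (adjusted p = 3.06e-08), *TET2* by 0.67 (adjusted p = 0.0075) and *GADD45A* by 0.48 (adjusted p = 1.76e-04). *CDCA7* had a mean of 18.2 ± 5.1 normalized counts (SD) with palbociclib and 60.0 ± 8.2 with DMSO. Higher with palbociclib were *IDH2*, *MBD3* and *AHCY*, by 0.52, 0.38 and 0.31 (adjusted p = 4.54e-05, 0.0028 and 0.0011). With the same total per library *MBD3* and *AHCY* were not called (0.15 and 0.08). *UHRF2* differed by -0.16 with palbociclib (adjusted p = 0.0627), and by -0.39 (adjusted p = 1.77e-04) with the same total per library.

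Among 9 tested partners of PRC2 and enzymes that remove its mark, 6 fell and 2 rose in DMSO against proliferating cells (median -0.30), beside the same 39.3% and 33.0% over all genes. With the same total per library 4 fell and 3 rose (median -0.069). *PHF19*, a Polycomb-like accessory subunit, fell by 1.92 (adjusted p = 1.41e-11), and the histone-binding subunits *RBBP7* and *RBBP4* by 1.25 and 0.97. The H3K27 demethylases *KDM6B* and *KDM6A* rose by 0.47 and 0.30 (adjusted p = 3.74e-04 and 0.0098). With palbociclib 6 of the 9 fell and none rose (median -0.27), beside 22.3% and 26.0% over all genes, including *KDM6A* by 0.66, *KDM6B* by 0.61 and *JARID2*, a PRC2 cofactor, by 0.56.

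Polycomb repressive complex 1 (PRC1) binds the mark of PRC2 and ubiquitinates histone H2A. The PRC1 group also holds genes that remove this ubiquitin. Of its 25 tested genes 14 fell and 5 rose in DMSO against proliferating cells (median -0.31). Over all genes 39.3% fell and 33.0% rose. With the same total per library 10 of the 25 fell and 7 rose (median -0.077). The mark-binding subunits split: *CBX2* fell by 3.165 (adjusted p = 3.44e-07) and *CBX7* rose by 1.11 (adjusted p = 7.66e-07), the latter under each scaling tried. The H3K9 group holds enzymes that write and remove this methylation, proteins that bind it and histone chaperones. In it 12 of 22 fell and 4 rose (median -0.35), beside the same 39.3% and 33.0% over all genes. With the same total per library 9 of the 22 fell and 7 rose (median -0.119). *CHAF1B* and *CHAF1A*, subunits of the replication-coupled histone chaperone, fell by 2.51 and 2.197, and *CBX5*, which encodes HP1 alpha, by 1.72. The largest rises were those of *SETDB2* by 0.33 and of the H3K9 demethylases *KDM4C* and *KDM3A* by 0.32 and 0.30. With palbociclib 6 of 25 and 3 of 22 fell and 2 rose in each group, counts near or below the 22.3% lower and 26.0% higher over all genes (medians 0.01 and -0.04). *CHAF1B* fell by 0.99 (adjusted p = 1.99e-05). These counts depend on the scaling: with the same total per library 15 genes were called in each of these groups, against 8 and 5 here. With ruxolitinib 0 genes of the 4 groups of partners were called against DMSO by limma, and 0 by edgeR and by DESeq2. At an unadjusted limma p under 0.05 there were 6 of 23 in the DNA methylation group, 0 of 9 around PRC2, 4 of 25 in PRC1 and 4 of 22 in the H3K9 group. When only the DMSO and ruxolitinib libraries were fitted, 6, 0, 5 and 4 genes were called.

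The genes of proliferation were examined beside the 10 genes. All 24 tested fell in DMSO against proliferating cells (median -2.62), 22 of 24 fell with palbociclib against DMSO (median -1.28) and 12 with ruxolitinib (median -0.31), where 39.3%, 22.3% and 3.42% of all genes were called lower. The count for ruxolitinib was 4 to 6 when any of the 6 DMSO and ruxolitinib libraries was left out. Their summed level ranged from 87214 to 95209 normalized counts in proliferating libraries, from 13623 to 13969 with DMSO, from 5399 to 5902 with palbociclib and from 11372 to 11608 with ruxolitinib. Its part in the results for the 10 genes was not tested.

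**Figure D4:**
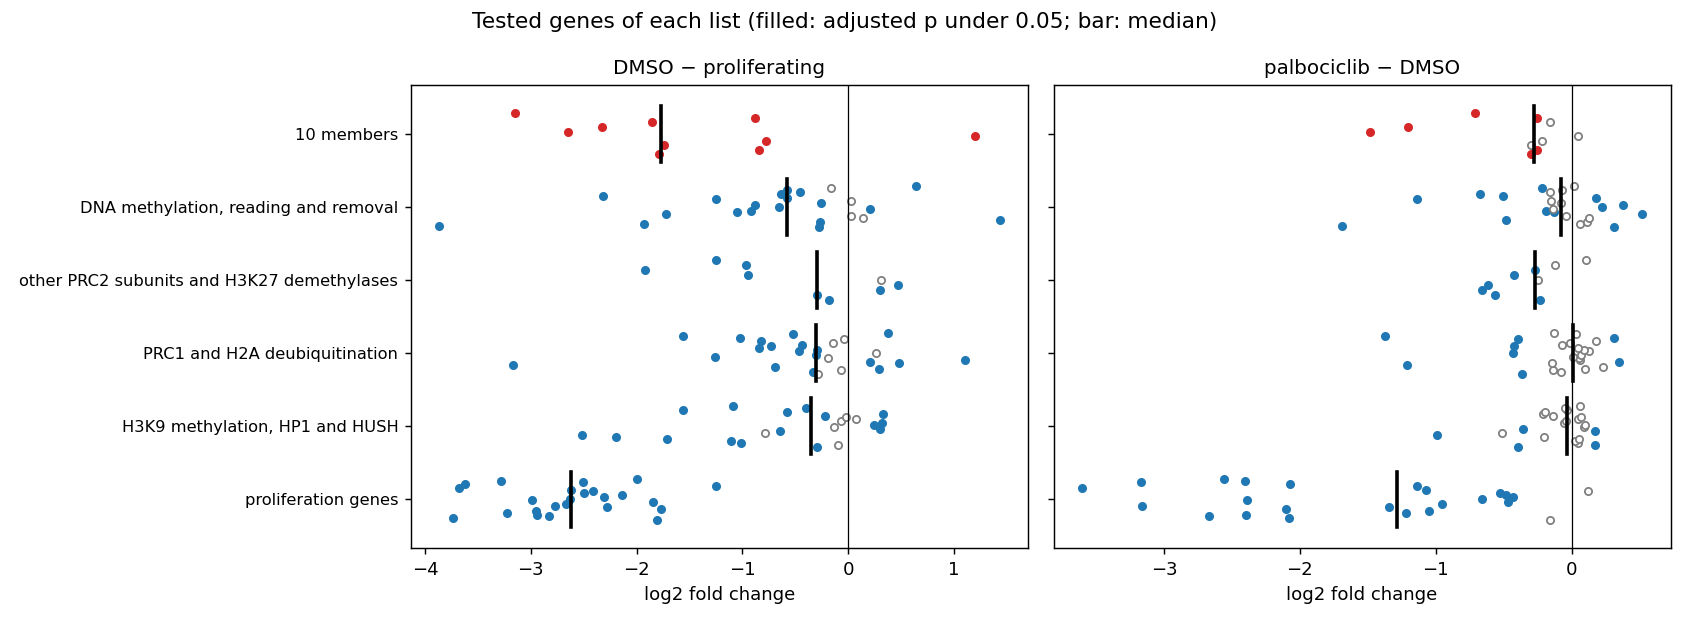
Log2 fold change (x axis) of every tested gene of 6 groups (y axis) for DMSO against proliferating cells and for palbociclib against DMSO. Filled points have an adjusted p under 0.05, and bars are medians. The medians of the 10 genes are -1.77 and -0.28, and those of the 24 proliferation genes are -2.62 and -1.28.

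Across the 12 libraries the genes most like each of the 10 were found by Pearson correlation of log2(normalized count + 1), as a description in which the group difference is shared by all points. *DNMT1* was closest to *NSD2* (r = 0.999), *UHRF1* to *PRRX1* and *MCM5* (both 0.998), *HELLS* to *AURKB* and *PLK1* (both 0.998) and *EZH2* to *SHCBP1* (0.997). *EZH1* was closest to *RIOK3* (0.995). Such values are common in this table: 1059 genes had r above 0.95 with *DNMT1*. Over the 9 irradiated libraries, *HELLS* and *EZH2* had r = 0.98, *DNMT1* and *UHRF1* 0.92, and *EZH1* and *EZH2* -0.29.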

How the data were processed

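RNA-seq of IMR90 fibroblasts in 4 groups of 3 libraries was used. The deposited signal values are normalized gene counts, that is, gene read counts that the authors divided by a size factor per library. The submitters' processing notes name Trimmomatic 0.38.1, HISAT2 2.2.1, featureCounts 2.0.3, FastQC 0.74, MultiQC and DESeq2 2.11.40.8 with hg38. Dividing by the smallest step gave whole reads for 100% of the 160380 values above 0 that were checked (tolerance 0.01 reads). Groups come from column names that match the labels.

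From these values, log2(normalized count + 1) was fitted with limma 3.58.1 (R 4.3.3, trended variance, group means over 12 libraries) on 11242 genes with a mean of at least 10, with Benjamini-Hochberg adjustment and a threshold of 0.05. edgeR 4.0.16 and DESeq2 1.42.0 were run on recovered reads as alternatives, beside other pseudocounts, filters, scalings, a stricter threshold and leaving out each library. The fit was tested on simulated data. Promoter windows are from RefSeq and gene models from GENCODE 44.

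The 10 genes and all gene lists were chosen with earlier results of these data known. All 10 are named. Genes named from the lists were drawn from the 3 largest called changes per direction (group mean of 100 or more in either group) and from fixed paralogs and partners.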

Additional observations from a re-analysis of the deposited data

How the results depend on the processing

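Each result was recomputed under 24 alternatives. The counts of called genes among the 10 stayed within 1.5 times of the reported count, except in the inhibitor comparisons that follow. For ruxolitinib against DMSO (2 called) the count was 1 with no filter, 0 at an adjusted p under 0.01, and 0 to 2 when single libraries were left out. For palbociclib against ruxolitinib (5 called) it was 3 when only the 2 groups were fitted, 3 at an adjusted p under 0.01, and 3 to 5 when single libraries were left out. Signs changed only for differences that were not called. With the same total per library *EZH1* was -0.18 for palbociclib against DMSO and -0.07 against ruxolitinib. With quantile normalization *DNMT3B* was 0.028 and 0.10 and *SUV39H1* was 0.083 and 0.15 in these comparisons. With single libraries left out, *EZH1* ranged from -0.009 (without A119) to 0.133 for palbociclib against DMSO, *EED* from -0.008 (without A124) to 0.087 for ruxolitinib against DMSO, and *SUV39H1* from -0.149 to 0.063 (without A121) for palbociclib against ruxolitinib. The log2 ratio of *DNMT3A* to *DNMT3B* then differed by -0.140 to 0.150 for palbociclib against DMSO (below 0 without A118 or A120), by -0.140 to 0.225 for ruxolitinib against DMSO (below 0 without A118, A123 or A124) and by -0.181 to 0.126 for palbociclib against ruxolitinib (below 0 without A120 or A122, and -0.008 with a pseudocount of 5). *SUV39H1* to *SUV39H2* differed by -0.168 to 0.081 for palbociclib against ruxolitinib (above 0 without A119, A121 or A123). The cause of these changes was not tested.

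Counts of called genes in the lists moved by more than 1.5 times as follows. For palbociclib against DMSO, the DNA methylation list (13) gave 8 with 2 groups fitted, 7 at an adjusted p under 0.01 and 7 to 13 with a library left out. In that comparison PRC1 (8) gave 15 with the same total, 5 at 0.01 and 5 to 9 with a library left out, and the H3K9 list (5) gave 15 with the same total. For palbociclib against ruxolitinib, the same total gave 8 for PRC2 partners (5), 11 for PRC1 (6), 15 for H3K9 (3) and 10 for E2F factors (6), and H3K9 gave 5 with quantile normalization, 1 at 0.01 and 2 to 5 with a library left out. For ruxolitinib against DMSO, where the 4 pathway lists had 0, fitting 2 groups gave 6 (DNA methylation), 5 (PRC1), 4 (H3K9) and 1 (E2F). Leaving out A120 and A126 gave 5, 2 and 4 for the first 3 of these, the same total gave 1 for PRC1 and DESeq2 gave 1 for E2F. Single libraries left out gave 0 to 2 (DNA methylation), 0 to 1 (PRC1) and 0 to 1 (E2F). Proliferation genes (12) gave 4 at 0.01 and 4 to 13 with a library left out. Polycomb targets with no filter numbered 9 (3 reported), 7 (4) and 5 (2) for DMSO, palbociclib and ruxolitinib against proliferating cells. They numbered 2 (1) for palbociclib against DMSO, where the same total gave 4. For ruxolitinib against DMSO (1) they numbered 0 with no filter or at 0.01, 2 with the same total, 2 groups fitted or A120 and A126 left out, and 0 to 2 with a library left out. Germline genes (0, or 1 for ruxolitinib against proliferating cells) ranged from 0 to 5 over all settings and comparisons, the 5 with no filter, and gave 3 in DMSO against proliferating cells and 2 in palbociclib against ruxolitinib with no filter.

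Setting the same total per library moved the share of higher calls over all genes to 64% in DMSO against proliferating cells and to 15.4% in palbociclib against DMSO. Without A120 and A126, chosen after seeing the data, the counts among the 10 genes were 10, 5, 3 and 5 in the 4 comparisons in the order of the report. No paired analysis was possible because the columns carry library numbers and no replicate number. With 3 libraries per group, small differences in weakly expressed genes such as *DNMT3B* were estimated with wide intervals.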

Other observations

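Genes that these enzymes are known to silence stayed mostly near the floor of detection. Of 20 germline genes commonly silenced by promoter methylation, 1 passed the filter on low values, *SYCP3*, a meiotic chromosome protein, which rose by 0.90 with ruxolitinib against proliferating cells (limma adjusted p = 0.0355) and was not called in the other comparisons (0.87 with palbociclib against DMSO, adjusted p = 0.0565). Summed over the 20 genes, levels were 8.3 to 12.2 normalized counts in proliferating libraries, 26.0 to 30.1 with DMSO, 15.99 to 29.9 with palbociclib and 34.3 to 48.6 with ruxolitinib. These sums are of few reads and no test was made of them.

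Of 22 commonly cited Polycomb targets 4 passed the filter. *CDKN2B*, the CDK inhibitor p15, rose by 0.97 in DMSO against proliferating cells (limma adjusted p = 2.58e-07) and by 0.37 with ruxolitinib against DMSO (adjusted p = 0.0454). *CDKN2A*, the locus of p16 and ARF, differed by 0.07 in DMSO against proliferating cells (adjusted p = 0.595) and fell by 0.53 with palbociclib against DMSO (adjusted p = 0.0015). *GATA6*, a developmental transcription factor, rose by 0.35 in DMSO against proliferating cells. DNA methylation and histone marks were not analysed here.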
